A study of Triticum turgidum subsp. durum with 96 samples.

Results

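MIR444 is the miR444 family of small RNAs, and its level was followed across durum wheat genotypes, organs, treatments and growing seasons. Its members were the entries of the conserved miRNA table whose leading identifier names the miR444 family, from any species. The rule found 1 of the 110 listed miRNAs, Osa-miR444b, which the table assigns to the rice identifiers MIR444b and MIR444c. The table gives its normalised abundance as RPM, the reads matching the miRNA per 1 M reads (M, mega) of the whole small RNA library. There were 96 libraries from 48 plants, with flag leaf and developing head sequenced separately for each. Plants belonged to 4 genotypes, the varieties Tamaroi and Yawa (water deficit stress tolerant) and EGA Bellaroi and Tjilkuri (sensitive), all grown at 22 °C by day and 12 °C by night. From booting onwards the control group stayed at 12% soil water content, while the water deficit stress group was held at 6% for 15 d before sampling. Genotype, tissue and treatment gave 16 groups of 6 libraries, 3 from season 1 and 3 from season 2, and a replicate is named here by its season and letter (1a to 2c). Each class of tolerance held only 2 varieties, so a difference between classes cannot be told apart from other differences between those varieties.

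miR444 is known from grasses and other monocots. In rice its precursor genes lie on the strand opposite to the MADS-box transcription factor genes whose transcripts it guides for cleavage, among them OsMADS23, OsMADS27 and OsMADS57. Work in rice has tied it to tillering, to nitrate signalling and root growth, and to the defence against viruses. The sequence of the listed member is shown first because plant miRNAs pair with their targets along nearly the whole mature sequence, by which their families are also compared, and the closest other listed sequence follows it to show how far apart they are. Capitals mark bases 2 to 8, the seed.
Osa-miR444b: tGTTGTCTcaagcttgctgcc
Zma-miR319a: tTGGACTGaagggtgctccc
The MIR444 sequence had 21 nt and a GC content of 52.4%. Its seed GTTGTCT occurred in 1 of the 110 listed sequences, its own. The closest other entry, Zma-miR319a, lay at an edit distance of 7 (substitutions, insertions and deletions counted alike), so no listed miRNA was near enough in sequence to share its reads at the 2 mismatches that the alignment allowed. Sequences were taken as deposited, and a position in the durum genome was not analysed here.

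MIR444 was a miRNA of middle rank. Its mean over the 96 libraries was 28.1 RPM, rank 48 of the 110, with a range from 0.50 to 69.1 RPM and a median of 25.3 RPM. It was above 0 in every library and above 2 RPM in 91 of them. Library depth, read from the step between RPM values, lay between 0.61 and 36.1 M reads, the median library having 5.22 M, so the MIR444 values rested on 2 to 922 reads with a median of 136.5. In RPM the level of a miRNA also depends on the other small RNAs in the library, and in these small RNA libraries fewer molecules per cell and fewer contributing cells cannot be told apart.

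Before the comparisons, 6 libraries have to be set apart. Each of the other miRNAs was first centred on its median of log2(RPM + 1) in each tissue. On the first principal component of these values, which held 32.9% of their variance, the 6 libraries were the lowest of the 96. The same 6 were the lowest of all in MIR444. In the flag leaf of stressed Yawa they were replicates 1a with 1.77 RPM and 2c with 1.05 RPM. In the head of stressed Yawa they were replicates 1a with 1.96 RPM, 2b with 0.50 RPM and 2c with 2.01 RPM. The remaining one was the head of control Tamaroi, replicate 1b, with 1.28 RPM. No other library fell below 9.48 RPM, so MIR444 left a gap between these 6 and the other 90. The component left no such gap, the highest score of the 6 being -10.7 and that of the next library -10.3. The number of 6 thus follows the values of MIR444 itself, and its results without them are not independent of that choice.

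The 6 libraries were not shallow, with 3.91 to 6.77 M reads each. Their MIR444 values rested on 2 to 12 reads, and the lowest, 2 reads, had an exact 95% Poisson interval of 0.0605 to 1.81 RPM, which covers counting error only. MIR444 made up 0.00638% to 0.0356% of the reads of listed miRNAs in them, against 0.0441% to 0.272% in the other 90 libraries. Its rank among the 110 was 58 to 92 in the 6 libraries and 30 to 58 in the rest. MIR444 did not fall alone there. Against the rest of their own groups, 76 of the 110 miRNAs were lower in all 6 libraries and 5 were higher in all 6, with a median log2 difference of -1.32 over the 110 and of -3.46 for MIR444, the 7th lowest. The part of these libraries in a result is therefore given beside it, and what set them apart was not tested.

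**Figure D1:**
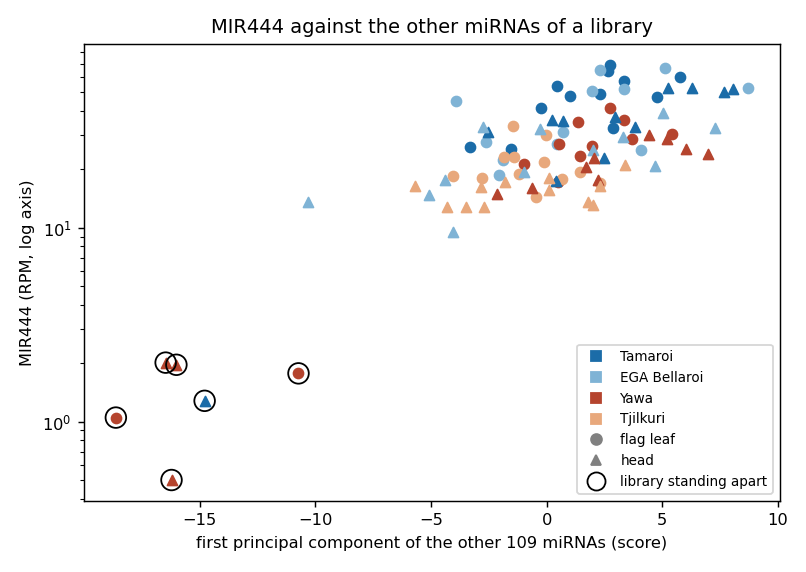
MIR444 in each of the 96 libraries (RPM, log axis) against the score of the library on the first principal component of the other miRNAs, centred on their tissue medians. Colours are genotypes, circles flag leaves and triangles heads. The 6 ringed libraries lie at or below 2.01 RPM and at scores of -10.7 or lower, while the next library on the component, an EGA Bellaroi control head at -10.3, had 13.6 RPM.

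The level of MIR444 was highest on average in the flag leaf of control Tamaroi and lowest in the head of stressed Yawa. Control Tamaroi flag leaves had 49.3 ± 13.1 RPM (mean ± SD, n = 6), stressed Tamaroi flag leaves 46.2 ± 16.5 RPM and stressed EGA Bellaroi flag leaves 45.4 ± 15.9 RPM. Control Tamaroi heads followed with 40.5 ± 20.3 RPM, and with 48.4 ± 7.40 RPM (n = 5) without the library standing apart. These 4 groups overlapped widely.

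The middle of the order held both organs and 3 genotypes. Control EGA Bellaroi flag leaves had 35.2 ± 17.8 RPM, control Yawa flag leaves 31.2 ± 7.45 RPM and stressed Tamaroi heads 29.6 ± 7.83 RPM. Stressed EGA Bellaroi heads had 27.9 ± 8.01 RPM and control Yawa heads 24.5 ± 4.98 RPM. Tjilkuri flag leaves came next, at 21.5 ± 6.69 RPM under stress and 21.1 ± 4.82 RPM in the control.

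Below them, control EGA Bellaroi heads had 20.0 ± 9.40 RPM and stressed Yawa flag leaves 17.1 ± 13.0 RPM, or 25.0 ± 5.93 RPM (n = 4) without the libraries standing apart. Tjilkuri heads were low, with 16.1 ± 1.67 RPM under stress, the most even group, and 14.9 ± 3.29 RPM in the control. Stressed Yawa heads came last with 9.59 ± 9.07 RPM, or 17.7 ± 2.86 RPM (n = 3) without their 3 libraries. None of the 15 pairs of neighbours in this order differed beyond the spread of the libraries (two-sided exact permutation tests of 6 against 6, unadjusted p from 0.190 to 0.944, all 15 adjusted to 0.944). Sorting by the observed means makes neighbours the closest pairs, so these tests could hardly have shown a difference. They do not bear on groups farther apart in the order.

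**Figure D2:**
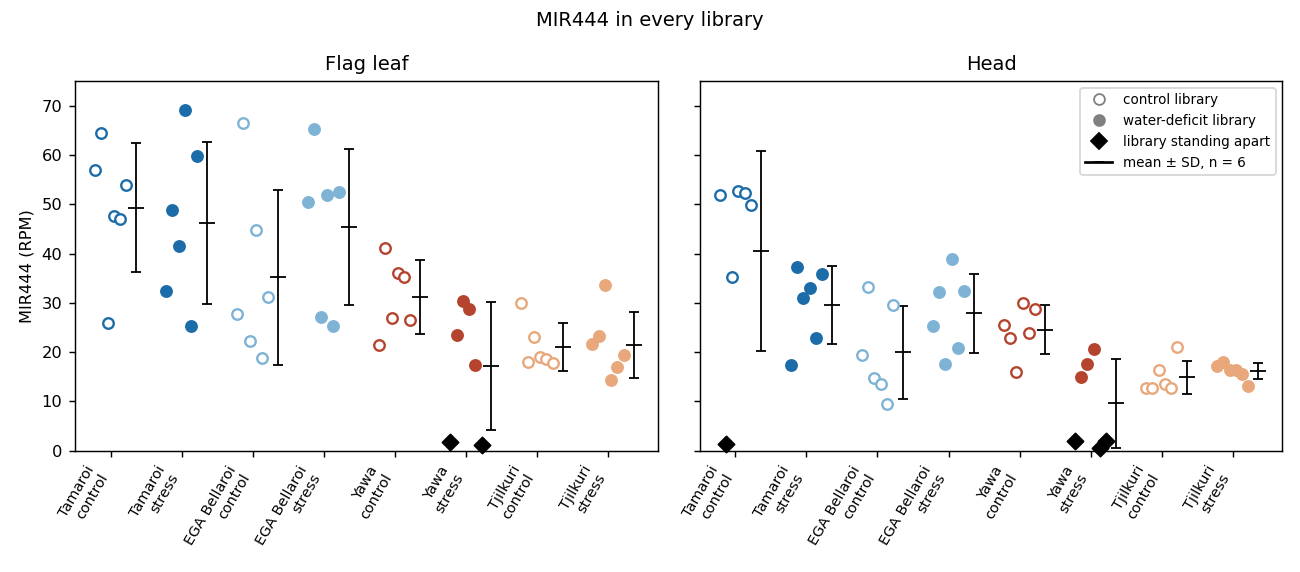
MIR444 in RPM in every library, by genotype and treatment, in the flag leaf and the head; open circles are control libraries, filled circles water deficit libraries, black diamonds the 6 libraries standing apart, and bars the mean ± SD of all 6 libraries of a group. The diamonds lie at 0.50 to 2.01 RPM, and Tjilkuri is low in both organs, its stressed heads being the most even group.

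The treatment comparison asked whether MIR444 changed under water deficit in a given genotype and organ. Of the 8 comparisons 1 passed the test, in Yawa heads, where MIR444 fell by 1.92 ± 0.53 on the log2 scale of RPM + 1 (± SE, limma adjusted p = 0.00558). The treatment change of Yawa heads was not shown to differ from that of Yawa flag leaves by the test of the difference (-0.48, limma adjusted p = 0.665). Control Yawa heads had a lowest value of 16.0 RPM, a median of 24.7 and a highest of 30.0. The 6 stressed heads had 0.50, 1.96, 2.01, 14.9, 17.5 and 20.6 RPM. The stressed heads thus split into 3 libraries near 0 and 3 whose range overlapped that of the controls.

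In Yawa heads the whole table moved with MIR444. Under water deficit 55.5% of the 110 miRNAs passed the same test, 61 lower and 0 higher, and the median log2 difference of all was -0.99, so that MIR444 lay 0.92 below that median. The 6 libraries standing apart include the lowest stressed Yawa heads, so leaving them out had to shrink the fall of MIR444. Without them the difference was -0.44 ± 0.28 (limma adjusted p = 0.754), and 0 of the 110 miRNAs were called by limma, with 4 at an unadjusted p under 0.05. Within season 1 it was -1.21 (limma adjusted p = 0.407) and within season 2 -2.63 (limma adjusted p = 0.00285). Median-ratio scaling, which divides a library by the median of the ratios of its miRNAs to their geometric means, gave -1.15 (limma adjusted p = 0.05004), and an exact permutation test of the mean RPM gave an adjusted p of 0.0519.

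In the flag leaf of Yawa the control libraries had 21.3 RPM at the lowest, 31.0 at the median and 41.2 at the highest. The stressed flag leaves had 1.05, 1.77, 17.3, 23.5, 28.8 and 30.4 RPM. Of the stressed libraries, 3 lay within the range of the controls and the others below it. The difference was -1.44 ± 0.44, with a 95% interval from -2.33 to -0.56, and missed the threshold (limma adjusted p = 0.101). Without the libraries standing apart, the lowest of the stressed ones, it was necessarily smaller, at -0.30 ± 0.31 (limma adjusted p = 0.932). Median-ratio scaling of all libraries gave -1.25 (limma adjusted p = 0.0303).

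The other 6 treatment differences did not pass the test, with limma adjusted p from 0.607 to 0.999. EGA Bellaroi had the highest, 0.54 in the head (95% interval from -0.53 to 1.60) and 0.41 in the flag leaf (from -0.48 to 1.29). In Tamaroi heads the difference was 0.01 over all libraries and -0.72 ± 0.24 without the 6 libraries standing apart (limma adjusted p = 0.294). Of those 6, only the control library 1b belonged to the Tamaroi heads. Leaving out single libraries of this comparison gave limma adjusted p of 0.655 or higher. In those 6 comparisons and in Yawa flag leaves 0% of the 110 miRNAs were called by limma, with 3 to 15 of them at an unadjusted p under 0.05.

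The genotype comparison asked whether MIR444 differed between the tolerant and the sensitive variety of a pair. Among the 8 comparisons it differed in the stressed heads of Yawa and Tjilkuri, where Yawa was lower by a log2 difference of -1.36 ± 0.53 (limma adjusted p = 0.0485). Stressed Tjilkuri heads had 13.1 RPM at the lowest, 16.4 at the median and 17.9 at the highest. The 3 stressed Yawa heads that did not stand apart, with 14.9, 17.5 and 20.6 RPM, lay at the same level. In this comparison 29.1% of the 110 miRNAs were called, all 32 of them lower in Yawa, and the median of all was -0.72. Leaving out the 6 libraries, which include the lowest Yawa heads, had to raise this difference, and its sign turned, to 0.12 ± 0.28 (limma adjusted p = 0.923). The call was also lost within season 1 (-0.93, limma adjusted p = 0.669) and kept within season 2 (-1.80, limma adjusted p = 0.0364). Leaving out Yawa 1a, 2b or 2c alone (limma adjusted p = 0.149, 0.203 and 0.154) or any 1 of the 6 Tjilkuri heads also ended it.

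In control plants MIR444 was on the side of the tolerant variety in both pairs and both organs, though none of these 4 differences passed the test over all libraries. In heads, Yawa had 24.5 RPM on average and Tjilkuri 14.9 RPM, a log2 difference of 0.68 with a 95% interval from -0.38 to 1.75. The 2 groups overlapped, since the lowest Yawa head had 16.0 RPM and the highest Tjilkuri head 21.0 RPM. With the spread taken from those 12 libraries only, that difference passed the test (limma adjusted p = 0.0467), and the exact permutation test of mean RPM gave an unadjusted p of 0.00649 and 0.0519 after adjustment over 8 comparisons. In flag leaves the differences were 0.54 for Yawa over Tjilkuri (95% interval from -0.35 to 1.42) and 0.55 for Tamaroi over EGA Bellaroi (from -0.33 to 1.44).

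Whether the difference between control heads of Tamaroi and EGA Bellaroi passed the limma test turned on a single library. The control Tamaroi heads had 1.28, 35.3, 49.9, 51.9, 52.2 and 52.6 RPM, and the EGA Bellaroi heads ran from 9.48 over a median of 17.0 to 33.1 RPM. All Tamaroi heads but replicate 1b were thus above every EGA Bellaroi head. Over all libraries the log2 difference was 0.61 ± 0.53 (limma adjusted p = 0.631). The ratio of mean RPM was 2.03 with replicate 1b included (exact permutation p = 0.0455, adjusted 0.121). Without replicate 1b alone the log2 difference was 1.34 (limma adjusted p = 0.0253). Among the 90 libraries not standing apart it was 1.34 ± 0.24 (limma adjusted p = 0.000135), with a ratio of mean RPM of 2.42. That fit also took the stressed Yawa heads standing apart out of the spread shared by the head groups.

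The value of 1.34 came from leaving out libraries after they had been seen, and other miRNAs moved as well. Among those 90 libraries 30% of the 110 miRNAs were called there, all 33 higher in Tamaroi, against 7.27% over all libraries. The groups did not overlap and Tamaroi was higher for 7.27% of the miRNAs, MIR444 among them. Median-ratio scaling of the remaining libraries gave 0.80 (limma adjusted p = 0.0159). Within season 1 the difference was 0.98 (limma adjusted p = 0.163) and within season 2 it was 1.65 (limma adjusted p = 0.00994).

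Under water deficit the pair Tamaroi and EGA Bellaroi gave differences of 0.03 in the flag leaf (95% interval from -0.86 to 0.91) and 0.08 in the head (from -0.98 to 1.15). Stressed Yawa flag leaves were at -0.91 ± 0.44 against Tjilkuri (limma adjusted p = 0.341), and at 0.22 ± 0.31 without the libraries standing apart. The share of the 110 miRNAs called was 0.909% between stressed Tamaroi and EGA Bellaroi flag leaves and 1.82% between their stressed heads. It was 0% in the other 3 flag leaf comparisons and in control heads of Yawa and Tjilkuri, with 11 to 17 miRNAs at an unadjusted p under 0.05 by limma.

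**Figure D3:**
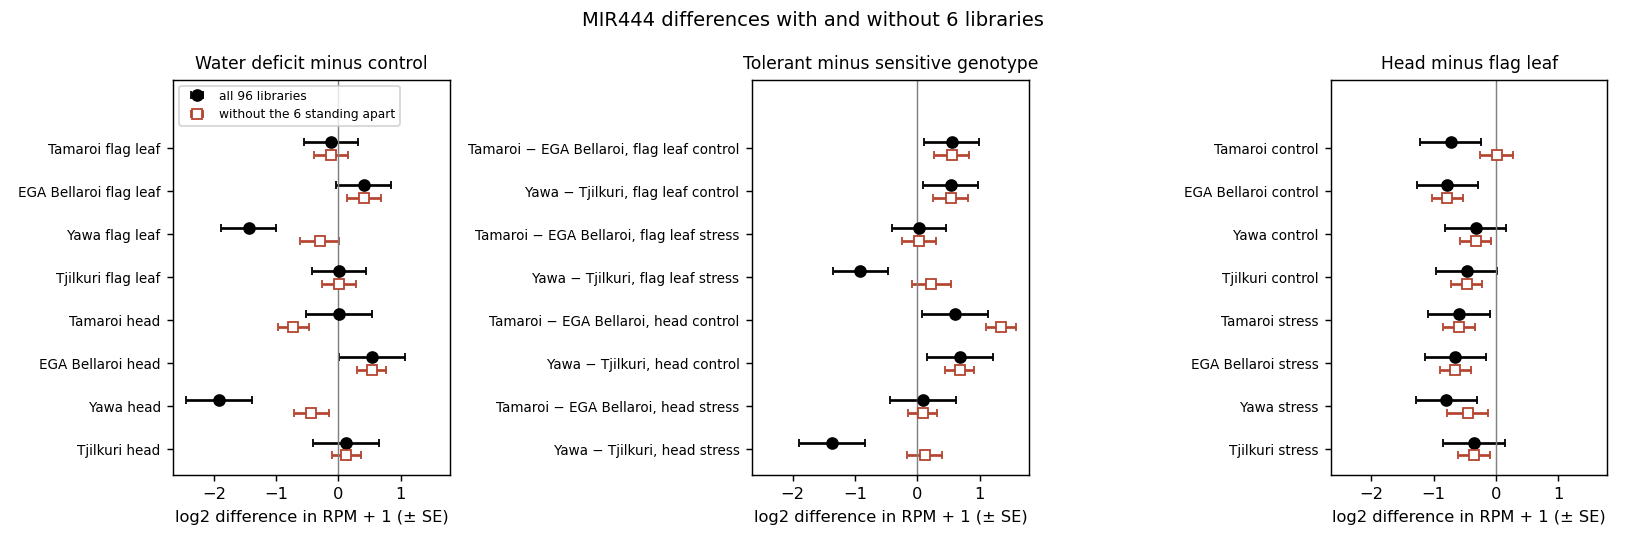
Log2 differences of MIR444 in RPM + 1 (± SE, limma) for water deficit against control, the tolerant against the sensitive variety, and head against flag leaf; black circles use all 96 libraries and open squares the 90 that remain without the 6 standing apart. The squares of stressed Yawa move towards 0, from -1.92 to -0.44 in the head, and that of control Tamaroi over EGA Bellaroi heads moves from 0.61 to 1.34.

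Whether the treatment difference itself depended on genotype was tested by interaction terms. Across both organs, with the varieties classed as tolerant or sensitive, the treatment change was lower in the tolerant class by a log2 value of -1.14 ± 0.41 (limma adjusted p = 0.0422), and 25.5% of the 110 miRNAs were called with it, 28 lower and 0 higher. The fit did not separate the varieties of a class. Over all libraries the treatment change of Yawa was -1.92 in heads and -1.44 in flag leaves, against 0.01 and -0.12 in Tamaroi. The term was no longer past the threshold with the plant as a block (limma adjusted p = 0.116) or without the 6 libraries, where it was -0.54 ± 0.24 (limma adjusted p = 0.161). Within season 1 it was -0.70 (limma adjusted p = 0.946) and within season 2 -1.58 (limma adjusted p = 0.0283). Each of 19 of the 96 libraries, left out alone, also ended the call, with values of -1.29 to -0.99 over all 96 such fits.

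Within pairs, the head of Yawa against that of Tjilkuri gave -2.05 ± 0.75 (limma adjusted p = 0.0576), and -0.56 ± 0.37 without the 6 libraries (limma adjusted p = 0.678). The flag leaf of this pair gave -1.45 ± 0.62 (limma adjusted p = 0.421). For Tamaroi against EGA Bellaroi the head gave -0.52 ± 0.75 (limma adjusted p = 0.930). Leaving the 6 libraries out, that value was -1.26 ± 0.34 (limma adjusted p = 0.0198), the treatment change being -0.72 in Tamaroi heads and 0.54 in EGA Bellaroi heads, and 2.73% of the miRNAs were called. Median-ratio scaling of those 90 libraries gave -0.66 (limma adjusted p = 0.294), season 1 alone -0.82 (limma adjusted p = 0.819) and season 2 alone -1.64 (limma adjusted p = 0.0460). Over all libraries 1.82% were called in the heads of Yawa and Tjilkuri and 0% in the other 3 pair comparisons, where limma gave 4 to 11 miRNAs at an unadjusted p under 0.05.

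Whether the treatment change differed between head and flag leaf of the same genotype was tested too. These terms lay between -0.48 in Yawa and 0.13 in Tamaroi, with limma adjusted p from 0.665 to 0.998. None of the 110 miRNAs was called by limma in any of them (0%), with 0 to 8 at an unadjusted p under 0.05.

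The tissue comparison asked whether MIR444 differed between head and flag leaf of the same genotype and treatment. In RPM it was lower in the head in all 8 comparisons of genotype and treatment, by log2 differences of -0.33 to -0.80, none past the threshold (limma adjusted p from 0.139 to 0.597, 95% intervals reaching down to -1.78), and under median-ratio scaling 7 of the 8 turned to values between 0.12 and 0.41, the exception being control Tamaroi. In control plants 54.5% of the 110 miRNAs were called in Tamaroi, 66.4% in EGA Bellaroi, 60% in Yawa and 57.3% in Tjilkuri. In stressed plants the shares were 67.3% in Tamaroi and in EGA Bellaroi, 65.5% in Yawa and 61.8% in Tjilkuri. In the order Tamaroi, EGA Bellaroi, Yawa and Tjilkuri, the miRNAs lower in the head were 45.5%, 58.2%, 44.5% and 48.2% in the control and 54.5%, 54.5%, 58.2% and 49.1% under stress. Those higher in the head were 9.09%, 8.18%, 15.5% and 9.09% in the control and 12.7%, 12.7%, 7.27% and 12.7% under stress. After median-ratio scaling 31 to 38 of the 110 were lower and 24 to 30 higher. The median log2 difference of all miRNAs lay between -0.75 and -1.21, so MIR444 was above the median of the table in each comparison.

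Without the 6 libraries the fall in RPM passed the test in 3 of the 8 comparisons. In control EGA Bellaroi it was -0.78 ± 0.25 (limma adjusted p = 0.00423), in stressed EGA Bellaroi -0.65 ± 0.25 (limma adjusted p = 0.0172) and in stressed Tamaroi -0.60 ± 0.25 (limma adjusted p = 0.0291). None of the 6 libraries belonged to the groups of these 3 comparisons. The differences were therefore the same as over all libraries, while the SE, estimated over all groups, fell from 0.49 to 0.25. In those comparisons 74.5%, 73.6% and 73.6% of the 110 miRNAs were called. All 3 turned to values above 0 under median-ratio scaling, the highest 0.26. Within a single season the test was passed in control EGA Bellaroi in season 2 (-0.88, limma adjusted p = 0.0349) and in none of the other 5 cases. The listed miRNAs together took a median of 34176 RPM in the 46 flag leaf libraries that did not stand apart and 16942 RPM in the 44 such heads, while MIR444 took a median of 0.0890% of them in flag leaves and 0.134% in heads.

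Both organs of a plant could be compared because the labels number the plants. In 4 plants at least 1 organ stood apart. The Yawa plants 31 and 36 were low in both organs, their flag leaves at 1.77 and 1.05 RPM and their heads at 1.96 and 2.01 RPM. Yawa plant 35 had a flag leaf at 17.3 RPM and a head at 0.50 RPM, and the control Tamaroi plant 2 had 64.5 RPM and 1.28 RPM. Both organs thus stood apart in 2 plants and only the head in the other 2. The flag leaf of plant 35 was nevertheless below the lowest control Yawa flag leaf, at 21.3 RPM.

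Among the other 44 plants, 37 had a lower MIR444 RPM in the head than in the flag leaf. The ratio of head to flag leaf ran from 0.303 to 1.36 with a median of 0.707. These are unscaled RPM, in which the listed miRNAs together were also lower in heads. Control Tamaroi was the exception, with a lower head in 2 of 5 plants and a median ratio of 1.10. Over these 44 plants the deviations from the group means of log2(RPM + 1) in both organs rose together, with Pearson's r = 0.59 (permutation p = 0.00084, 0.00252 adjusted over 3 tests) and Spearman's rho = 0.53 (permutation p = 0.00158, adjusted 0.00474). Without the 2 plants farthest from the median r was 0.50, and after median-ratio scaling of the 44 plants it was 0.52 (permutation p = 0.00497). The same correlation was not computed for the other miRNAs, so it cannot be called particular to MIR444. Within season 1, r was 0.72 over 22 plants (permutation p = 0.00963, adjusted 0.0144), with rho = 0.70 (permutation p = 0.0105, adjusted 0.0158). Within season 2, r was 0.49 over 22 plants (permutation p = 0.177) and rho 0.35 (permutation p = 0.249), so the relation was not shown in that season alone.

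**Figure D4:**
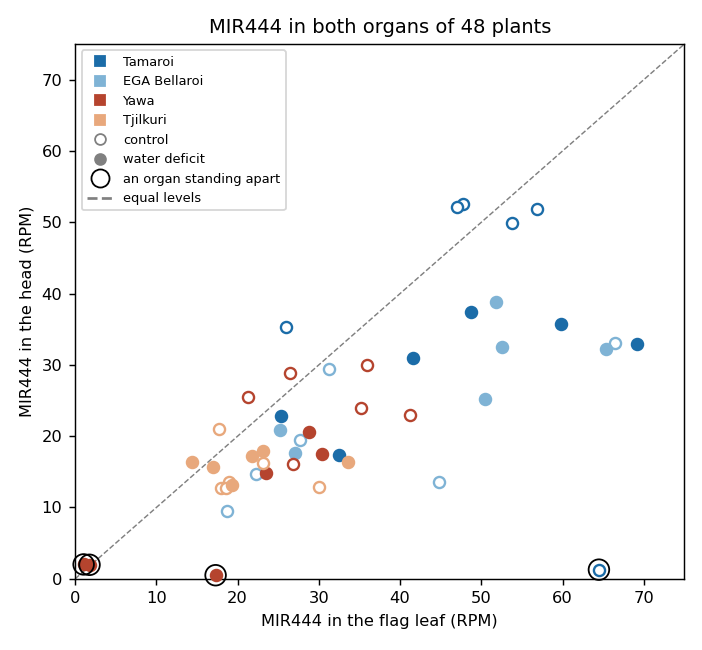
MIR444 in the head against the flag leaf (RPM) of the 48 plants, 1 point per plant; colours are genotypes, open points controls, filled points water deficit, the dashed line equal levels, and rings the 4 plants with an organ standing apart. Most points lie below the dashed line, and 4 ringed points lie at 2.01 RPM or lower in the head.

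Season passed the test in neither organ. With the groups in the model, season 2 differed from season 1 by -0.13 ± 0.22 in flag leaves (limma adjusted p = 0.812; 95% interval from -0.58 to 0.31) and by 0.12 ± 0.27 in heads (limma adjusted p = 0.875; from -0.42 to 0.66). In the same tests 2.73% of the 110 miRNAs were called in flag leaves and 8.18% in heads.

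The miRNAs whose pattern was most like that of MIR444 over the 96 libraries were Gma-miR393h (Pearson's r = 0.85), Bdi-miR168 (0.82), Hvu-miR5048a (0.79), Bdi-miR5054 (0.75) and Sbi-miR160f (0.75). miR393 targets auxin receptor transcripts, miR168 that of ARGONAUTE1 and miR160 those of auxin response factors. These correlations of log2(RPM + 1) are descriptions, since the libraries share their depth and their denominator. Over the 90 libraries not standing apart they were 0.60, 0.63, 0.45, 0.62 and 0.60, and after median-ratio scaling of all 96 they were 0.73, 0.63, 0.55, 0.55 and 0.42. Over those 90 libraries the same miRNAs, in the same order, ranked 7, 4, 35, 5 and 6 in likeness, so other miRNAs were more alike there.

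Of the miRNA families that regulate flowering and inflorescence genes (miR156, miR159, miR164, miR172, miR319 and miR5200), 24 miRNAs were listed. In stressed Yawa heads 14 of the 24 fell, none rose and 10 did not pass the test, a share of 58.3% against 55.5% of all miRNAs, with a median log2 difference of -0.78 against -0.99 over all, and without the 6 libraries 0 of the 24 were called. Gma-miR156k, of the family that targets SPL transcription factors, had -1.31 ± 0.32 (limma adjusted p = 0.00451). Between head and flag leaf 19 or 20 of the 24 were lower and 2 to 4 higher in each of the 8 comparisons, against 49 to 64 lower and 8 to 17 higher of the 110. After median-ratio scaling 14 to 19 of the 24 were lower and 3 or 4 higher. Zma-miR319a, of the family that targets TCP transcription factors, was higher in control Tamaroi heads by 5.75 ± 0.30 on the log2 scale (limma adjusted p = 1.59e-30).

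The nutrient related families (miR393, miR395, miR399 and miR827) had 8 listed miRNAs. In stressed Yawa heads 7 of the 8 fell and 1 did not pass the test, against 55.5% of all miRNAs, with a median log2 difference of -1.69 against -0.99 over all, and without the 6 libraries 0 of the 8 were called. Zma-miR399e, of the family that targets the phosphate regulator PHO2, had -2.20 ± 0.53 (limma adjusted p = 0.00451). Bdi-miR827-5p, of a family tied to phosphate homeostasis, had -1.35 ± 0.31 (limma adjusted p = 0.00451). Between head and flag leaf 2 or 3 of the 8 were lower in each comparison, 25% to 37.5% against 44.5% to 58.2% of all miRNAs, and none was higher. After median-ratio scaling 2 of the 8 were lower and 0 or 1 higher.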

How the data were processed

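The authors trimmed the reads, kept those of 15 to 50 nt, and matched them in CLC Genomics Workbench to the mature sequences that miRBase release 20 lists for 9 plants, with up to 2 mismatches. They deposited RPM for each library, the reads of a miRNA scaled to all small RNA reads, for miRNAs above 2 RPM in at least 50% of the libraries. RPM is not a count, so log2(RPM + 1) of all 110 miRNAs entered limma with a trended variance prior (empirical Bayes). Adjusted p values follow Benjamini-Hochberg over those 110, at a threshold of 0.05. Treatment and genotype fits used the 48 libraries of a tissue, with 8 group means sharing 1 spread. Tissue fits used 96 libraries, and the tolerance term had tissue as an additive covariate. Depth was recovered from the RPM step of each library: 10451 of 10451 values above 0 were whole reads, to within 0.01 reads. Correlations between organs used 100000 permutations of plants within groups, among plants without an organ standing apart. That exclusion followed a gap in MIR444 itself, since the component left none at that cut.

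Groups, seasons and plants came from the sample labels. Libraries are single plants, and the flag leaf and head of a plant are paired by its number. Their deviations from the group means correlated by 0.45 on average over the listed miRNAs (48 pairs, lowest 0.0013). Libraries of other groups with the same season and letter correlated by 0.075, against 0.074 for another letter of the season, so the letters were not taken as pairs. MIR444 and the lists of families were chosen with earlier results of these data known. Other miRNAs were named as the 5 most alike, the closest sequence, or at most 3 of a list with the smallest p in a comparison. The limma steps were tested on simulated data. The alternatives were other pseudocounts, a minimum mean of 10 RPM, median-ratio scaling, season as a covariate or a single season, replicate and plant blocks, fits of the 2 groups alone, exact tests, libraries of at least 1 M reads and single libraries left out. Leaving out the 6 libraries standing apart, alone or with a season or scaling, or the 7 lowest, was chosen after seeing the data. The table of hairpins without a miRBase match was not used here. Models ran in limma 3.58.1 and statmod 1.5.0 under R 4.3.3. Exact and permutation tests ran in scipy 1.17.1 under Python 3.11.15, tables in numpy 2.4.6 and pandas 2.3.3, and plots in matplotlib 3.10.9.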

Additional observations from a re-analysis of the deposited data

Results flagged for a closer look

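In the heads of control Tamaroi, replicate 1b had 1.28 RPM of MIR444 against 35.3 to 52.6 RPM in the other 5 libraries, and its gap to the nearest of them was 0.662 of the range of the group, above Dixon's critical value for 6 samples. The flag leaf of the same plant had 64.5 RPM. This was the only such sample among the 16 groups, and chance alone gives about 1 in 20 groups. What set this library apart was not tested.

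The interaction of tolerance and treatment for MIR444 was -1.14 on the log2 scale over all libraries (limma adjusted p = 0.0422). The fit did not separate the varieties of a class. Of the tolerant varieties, Yawa changed by -1.92 in heads and -1.44 in flag leaves, and Tamaroi by 0.01 and -0.12. The interaction was -0.54 without the 6 libraries standing apart, and was past the threshold neither there (limma adjusted p = 0.161) nor with the plant as a block (limma adjusted p = 0.116).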

How the results depend on the processing

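Over 35 tests of MIR444 and their alternatives 1097 values were obtained. Of these 964 kept their direction and their side of the threshold of 0.05, 46 lost the threshold, 27 passed it and 60 changed sign, and a cause was not tested for any of them except where fewer libraries entered by construction. A pseudocount of 0.5 and season as a covariate changed no call or sign. No change of sign was past the threshold. Values below are log2 differences, and limma gave the adjusted p except where named. The 2 planned tests on whole counts were not run. The 6 lowest values rest on 2 to 12 reads, although those libraries were not shallow. Depth limits the 4 heads with under 1 M reads. They held 8 MIR444 reads in stressed Tjilkuri 2c, 10 in control Tjilkuri 2a and 18 in each of stressed EGA Bellaroi 1a and 2b.

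A pseudocount of 5 gave -0.80 for stressed Yawa against Tjilkuri heads, which lost its call, -0.14 for the treatment in Tamaroi heads and -0.029 for its difference from the flag leaf. A minimum mean of 10 RPM brought the pair difference of the treatment change in Yawa and Tjilkuri heads (-2.05) past the threshold.

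Median-ratio scaling lost the calls in Yawa heads under stress (-1.15), stressed Yawa against Tjilkuri heads (-0.76) and the tolerance interaction (-0.73), and gave one in Yawa flag leaves (-1.25). It turned head against flag leaf to 0.27, 0.26 and 0.21 in control EGA Bellaroi, Yawa and Tjilkuri and to 0.12, 0.17, 0.36 and 0.41 in stressed Tamaroi, EGA Bellaroi, Yawa and Tjilkuri. It also turned the treatment in Tjilkuri flag leaves (-0.088), the tissue difference of the treatment change in EGA Bellaroi (-0.10) and Yawa (0.10), and season in heads (-0.0010).

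In season 1 alone Yawa heads under stress (-1.21), stressed Yawa against Tjilkuri heads (-0.93) and the tolerance interaction (-0.70) lost their calls. Tamaroi against EGA Bellaroi turned in stressed flag leaves (-0.15), control heads (-0.44) and the treatment change of heads (0.60), as did the tissue difference of the treatment change in EGA Bellaroi (-0.17). In season 2 alone the treatment turned in Tjilkuri flag leaves (-0.12) and heads (-0.035) and in Tamaroi heads (-0.76), as did control Tamaroi head against flag leaf (0.060) and its tissue difference of the treatment change (-0.70). The correlation of both organs was not past the threshold in season 2 (r = 0.49).

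With the replicate block stressed Yawa against Tjilkuri heads (-1.36) had an adjusted p of 0.0549, and it changed no other call. With the plant as replicate block the tolerance interaction (-1.14) had an adjusted p of 0.116. Fitting only the 2 groups compared lost stressed Yawa against Tjilkuri heads (-1.36) and gave calls for control Yawa against Tjilkuri heads (0.68) and control Tjilkuri head against flag leaf (-0.47). With libraries of at least 1 M reads the same stressed comparison (-1.42) and the tolerance interaction (-1.14) lost their calls, and stressed Tamaroi against EGA Bellaroi heads turned (-0.026). By exact permutation of mean RPM, Yawa heads under stress (-1.36) and stressed Yawa against Tjilkuri heads (-0.75) were not called, and Tamaroi heads turned (-0.46).

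Without the 6 libraries, and without the 7 lowest where a second value is given, Yawa heads under stress (-0.44) and the tolerance interaction (-0.54 and -0.53) lost their calls. Control Tamaroi against EGA Bellaroi heads (1.34 and 1.26), their treatment change (-1.26 and -1.18), and head against flag leaf in control EGA Bellaroi (-0.78 and -0.70), stressed EGA Bellaroi (-0.65) and stressed Tamaroi (-0.60) gained one. The groups of those tissue comparisons held none of the 6 libraries, so without the 6 only the shared spread changed. Signs turned for stressed Yawa against Tjilkuri in heads (0.12) and flag leaves (0.22), and in Tamaroi for the treatment in heads (-0.72), control head against flag leaf (0.0086) and the tissue difference of the treatment change (-0.60). Among the calls made without the 6 libraries, scaling turned head against flag leaf to 0.26 in control and 0.19 in stressed EGA Bellaroi and to 0.086 in stressed Tamaroi, and the treatment change of Tamaroi against EGA Bellaroi heads lost its call (-0.66, adjusted p 0.294).

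Leaving out 1 library at a time gave these ranges where a call or sign changed. Stressed Yawa against Tjilkuri heads ran from -1.70 to -0.93, losing its call without Yawa 1a, 2b or 2c (adjusted p 0.149, 0.203 and 0.154) or any of the 6 Tjilkuri heads. The tolerance interaction ran from -1.29 to -0.99, with 19 of the 96 libraries each ending the call. Yawa flag leaves under stress ran from -1.73 to -0.94, the pair difference of the treatment change in Yawa and Tjilkuri heads from -2.39 to -1.62, stressed Yawa head against flag leaf from -1.30 to -0.37, and control Tamaroi against EGA Bellaroi heads from 0.43 to 1.34, the last without Tamaroi 1b. The treatment ran from -0.29 to 0.033 in Tamaroi flag leaves, -0.72 to 0.19 in Tamaroi heads and -0.13 to 0.11 in Tjilkuri flag leaves. Stressed Tamaroi against EGA Bellaroi ran from -0.12 to 0.18 in flag leaves and -0.032 to 0.22 in heads, control Tamaroi head against flag leaf from -0.90 to 0.0086, the tissue difference of the treatment change from -0.60 to 0.31 in Tamaroi and -0.076 to 0.29 in EGA Bellaroi, and season in heads from -0.066 to 0.23.

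Of the 110 miRNAs, 61 were called in Yawa heads under stress, against 13 after scaling, 26 in the fit of the 2 groups, and 0 in season 1 or without the 6 or 7 libraries. In stressed Yawa against Tjilkuri heads 32 were called, against 18 with a pseudocount of 5, 21 with the replicate block, 2 in the fit of the 2 groups, 1 with libraries of at least 1 M reads, and 0 after scaling, in season 1 or without the 6 or 7 libraries. For the tolerance interaction 28 were called, against 18 with a pseudocount of 5, 6 after scaling, 2 in season 1, 48 in season 2, 15 with libraries of at least 1 M reads, and 3 with the plant block or without the 6 or 7 libraries.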
